A study of Mus musculus with 57 samples.

Results

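Lysosomal enzymes and membrane proteins were followed as a group of 36 genes in RNA of the mouse prefrontal cortex. They were listed by name, with earlier results of these data known, and found by Ensembl identifier in the deposited table: all 36 were present among its 18088 genes, and all 36 passed the filter on low values. The animals were C57BL/6J mice of 2 genotypes, wild type (WT) and heterozygous for Shank3 delta C (HT), an allele of a scaffold protein of excitatory synapses. Each received vehicle, fluoxetine or lithium in its mother's milk for 3 weeks, from postnatal day 3 to 24, and the cortex was taken on postnatal day 25. WT and HT mice, 3 treatments and both sexes gave 12 groups: WT vehicle, WT fluoxetine, WT lithium, HT vehicle, HT fluoxetine and HT lithium, each as females and as males. There were 56 libraries, 5 in each of 9 groups, 4 for WT lithium females, 4 for HT lithium males and 3 for HT vehicle males. The question for these genes was how they lay under fluoxetine, a serotonin reuptake inhibitor and cationic amphiphilic drug that collects in lysosomes, beside lithium, a mood stabiliser without that property. Neither the drug doses nor the litters are given in the labels, and pups of 1 dam shared its milk, so the p-values below treat as independent mice that may not be. No label says that the replicates are separate animals.

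The lysosome breaks down lipids, glycans and proteins with acid hydrolases, whose low pH is kept by a proton pump in its membrane. Loss of single members causes storage diseases, many of which strike the brain, and the transcription factor TFEB raises many of these genes together through a promoter motif with CACGTG at its core when lysosomes are under strain. Cationic amphiphilic drugs are trapped in the acid lumen, where they can hinder acid sphingomyelinase and acid ceramidase and cause phospholipids to build up.

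The promoters of the members were read first, since this motif is the letter string through which the genes are known to be co-regulated. RefSeq (GRCm38.p6) gave windows of 300 bases, from 250 before to 50 after each listed start, for 33 of the 36 members, and gave none for Asah1, Ctsb and Npc1. CACGTG, which reads the same on both strands, lay in the windows of 13 of 33 members (39.4%) and of 8.09% of all 27025 genes with a window. The members were Gla, Glb1, Arsa, Gaa, Sgsh, Naglu, Ctsa, Ctsd, Ctsl, Lamp1, Mcoln1, Cln3 and Atp6v0d1. By windows, since a gene can have several starts, the share was 34.2% of 38 member windows against 7.15% of 32851. The longer palindrome TCACGTGA, which contains CACGTG and so is counted in both, lay in 6 of 33 members (18.2%; Gla, Ctsa, Ctsd, Mcoln1, Cln3 and Atp6v0d1) and in 1.12% of all genes. A match describes letters and is not a measured site. The string was chosen because it is known for such genes, so its larger share among the members is not an independent result. The 27025 genes were not limited to the 18026 tested below. Of the 10 members that are called in any comparison below, 3 had a window with CACGTG (Gaa, Mcoln1 and Ctsa). Grn, Ppt1, Neu1, Arsb, Man2b1 and Npc2 had windows without it, and Asah1 had no window. Whether the motif goes with the calls was not tested. The windows of the 3 are shown with those letters in capitals, 5′ to 3′ on the plus strand of GRCm38. In the Gaa window (chr11:119267713-119268012) the motif begins 140 bases before the start. In the Mcoln1 window (chr8:3500269-3500568) the 2 copies begin 71 and 45 bases before it. In Ctsa the window of 1 of 2 listed starts holds it (chr2:164833523-164833822), with copies that begin 12 bases before and 5 bases after the start.
Gaa: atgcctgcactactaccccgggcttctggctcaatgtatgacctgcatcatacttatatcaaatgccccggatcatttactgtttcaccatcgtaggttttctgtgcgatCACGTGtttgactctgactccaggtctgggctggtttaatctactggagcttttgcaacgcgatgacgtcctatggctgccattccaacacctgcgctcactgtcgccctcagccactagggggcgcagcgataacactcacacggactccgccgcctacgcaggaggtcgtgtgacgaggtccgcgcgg
Mcoln1: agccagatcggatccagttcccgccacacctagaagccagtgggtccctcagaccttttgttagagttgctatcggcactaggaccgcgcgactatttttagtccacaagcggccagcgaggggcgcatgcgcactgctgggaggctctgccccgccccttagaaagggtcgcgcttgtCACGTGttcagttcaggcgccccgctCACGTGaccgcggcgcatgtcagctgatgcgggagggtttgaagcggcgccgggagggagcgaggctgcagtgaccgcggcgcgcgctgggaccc
Ctsa: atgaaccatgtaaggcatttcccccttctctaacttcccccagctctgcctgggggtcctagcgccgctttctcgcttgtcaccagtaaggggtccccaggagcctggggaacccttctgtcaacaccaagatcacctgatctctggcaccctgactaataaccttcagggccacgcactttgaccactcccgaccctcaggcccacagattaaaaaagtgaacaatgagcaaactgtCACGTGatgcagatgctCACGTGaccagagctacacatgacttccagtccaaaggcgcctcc

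The members covered a wide range of levels, here compared as the deposited normalised count per kilobase of the longest transcript. Their medians over 56 libraries ran from 33.5 for Sgsh, the sulfamidase of heparan sulfate breakdown, to 15159 for Psap, the precursor of the saposins that present lipids to hydrolases, a ratio of 453. Among the sphingolipid hydrolases and activators, Psap was followed by Smpd1 (acid sphingomyelinase, 1304), Hexa (a subunit of the enzyme that degrades ganglioside GM2, 626) and Asah1 (acid ceramidase, 517). Neu1 (a sialidase, 383), Arsa (arylsulfatase A, 233), Glb1 (beta-galactosidase, 225), Galc (galactosylceramidase, 189) and Gla (alpha-galactosidase A, 104) were lower per kilobase. Among the hydrolases of glycogen, glycoproteins and glycosaminoglycans, Gaa (acid alpha-glucosidase, which degrades glycogen) stood at 1671 and Arsb (arylsulfatase B) at 935 per kilobase. Man2b1 (alpha-mannosidase, 354), Fuca1 (alpha-fucosidase, 263), Gusb (beta-glucuronidase, 132), Naglu (alpha-N-acetylglucosaminidase, 80.2) and Manba (beta-mannosidase, 68.9) lay below them.

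The peptidases were led by the cathepsins Ctsd (4099.9 per kilobase) and Ctsb (2736), ahead of Ctsa (the protective protein that stabilises Neu1 and Glb1, 602), Tpp1 (tripeptidyl peptidase, 496), Ctsz (456) and Ctsl (414). For sterols and lipid esters, Ppt1 (a thioesterase that removes palmitate from proteins) stood at 1013 per kilobase. Npc2 (391) and Npc1 (263), the luminal and membrane proteins of cholesterol export, and Lipa (acid lipase, 144) were lower. In the membrane the proton pump components Atp6ap1 (4703) and Atp6v0d1 (3856) and the membrane glycoprotein Lamp1 (4172) were high per kilobase. Scarb2 (a membrane protein that also serves in sorting to lysosomes, 771), Mcoln1 (a cation channel that releases calcium, 686), Lamp2 (549.9) and Cln3 (lost in a juvenile storage disease, 86.2) followed. Grn, which encodes progranulin, a secreted protein that is taken to lysosomes, stood at 742 per kilobase and Tfeb at 78.3. These are levels of whole tissue: fewer cells of a type and less RNA per cell cannot be told apart.

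**Figure D1:**
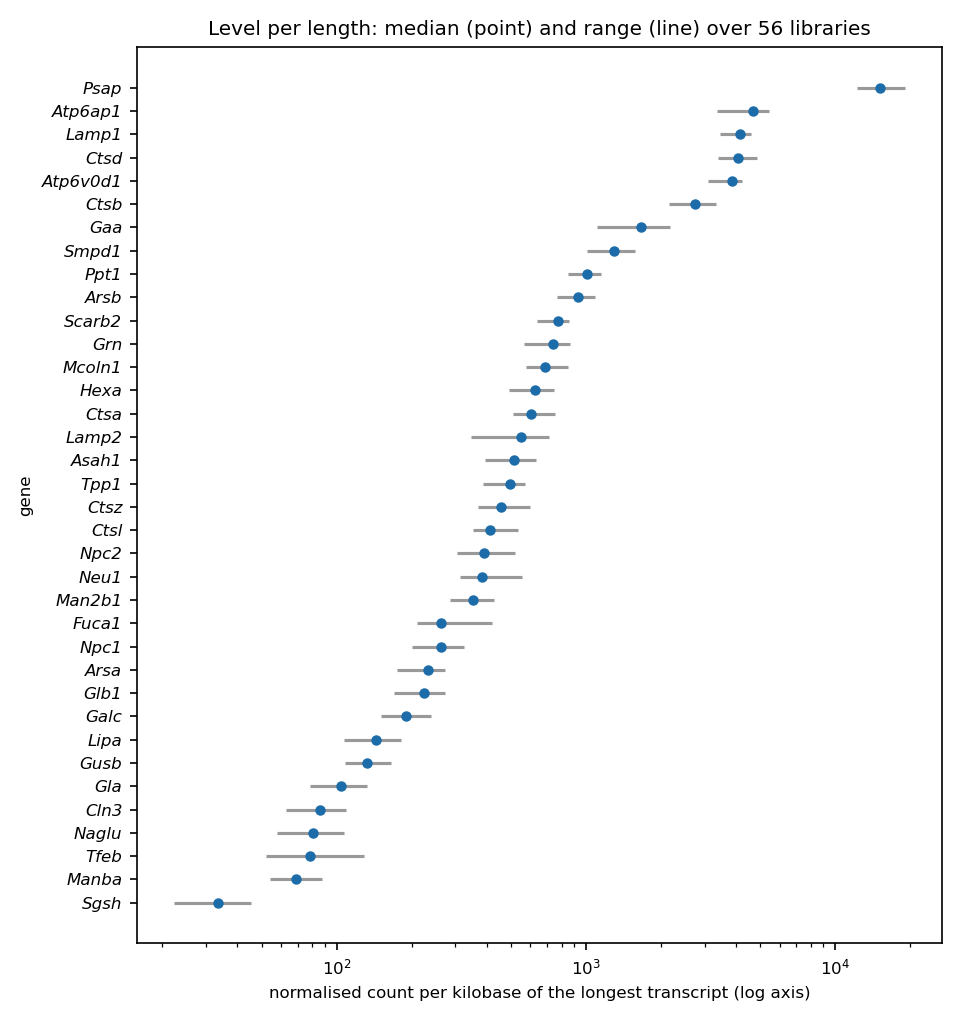
Level of each of the 36 genes as normalised count per kilobase of its longest transcript (log axis), with the median (point) and the range (line) over 56 libraries. Sgsh is lowest at 33.5 and Psap highest at 15159, and each gene's own range is narrow beside the distance between genes.

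Across the 12 groups the members moved little. The ratio of the highest to the lowest group mean was below 1.5 in all 36, from 1.08 for Scarb2 to 1.48 for Sgsh, with a median of 1.18. Libraries of 1 group spread with a median coefficient of variation of 7.06% (3.96% for Ppt1 to 17.6% for Tfeb). No member was at 0 in any library. The 2 lowest groups by the members' mean deviation (the log2 value minus each gene's mean over libraries, averaged over the 36) were vehicle females, at -0.059 ± 0.033 in HT and -0.053 ± 0.042 in WT (SD, n = 5 each), while the other 10 groups lay between -0.014 and 0.034. Gaa and Grn were the clearest cases: in both genotypes their lowest group means were those of vehicle females. Gaa had 4684 ± 384 normalised counts in WT vehicle females and 4726 ± 599 in HT vehicle females, against 6260.4 ± 493 and 5723 ± 907 in vehicle males (SD, n = 5, 5, 5 and 3).

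**Figure D2:**
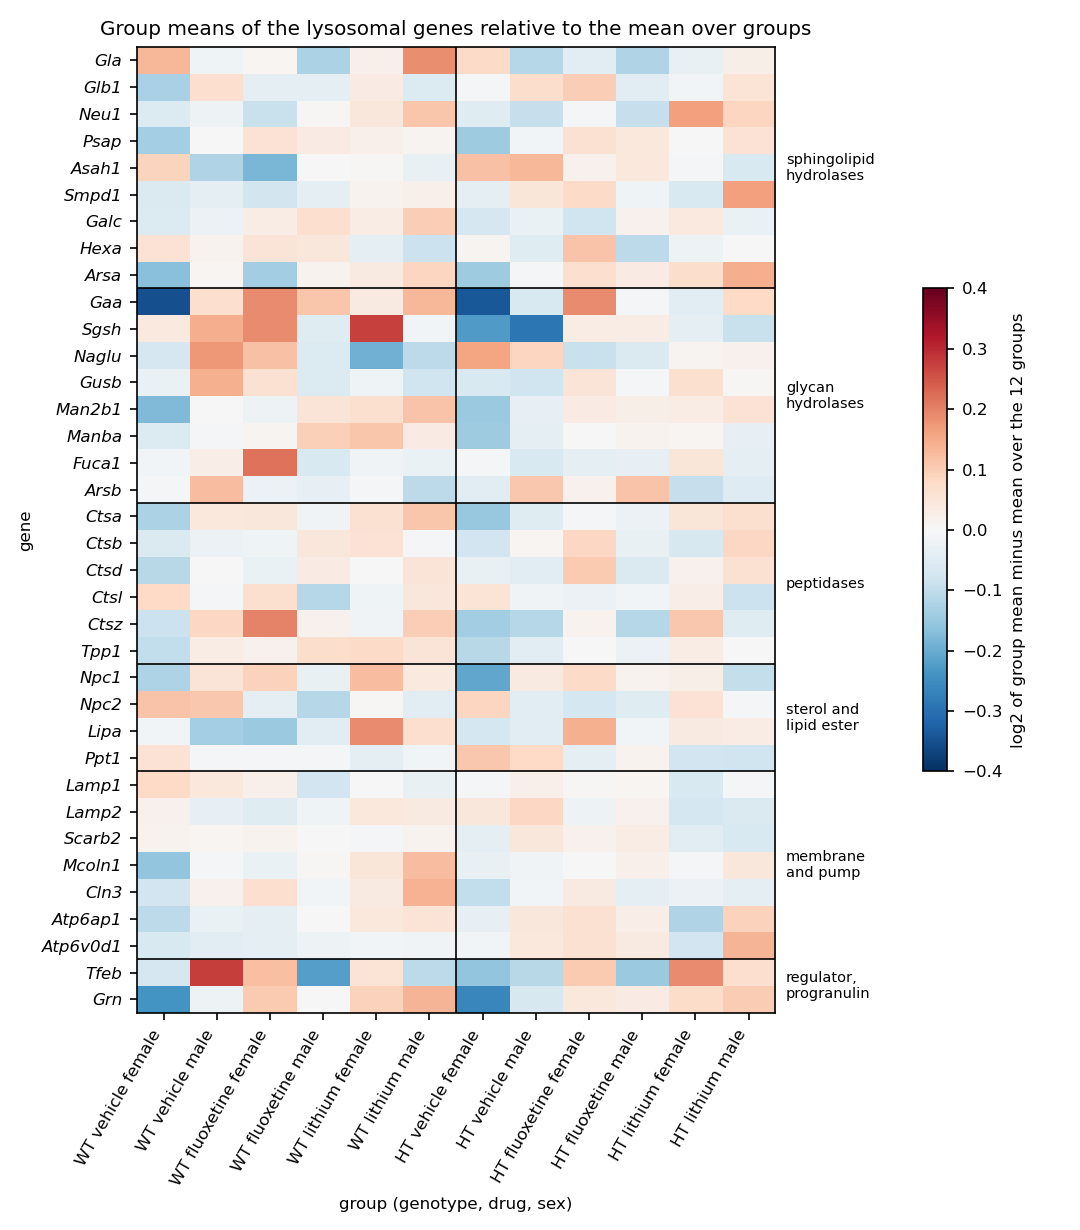
Group means of the 36 genes (rows, by role) in the 12 groups (columns), as log2 of the group mean minus the gene's mean over the groups. Gaa and Grn are bluest (lowest) in WT and HT vehicle females, and no gene's groups differ by more than a ratio of 1.48.

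The libraries held 22984556 to 35969254 reads over the listed genes. None of the 8 neuronal, 10 astrocyte, 10 myelin or 16 microglial markers was at 0 in any library. These are markers of cell types and cannot tell the labelled prefrontal cortex from other brain regions. Of the 56 libraries 2 stood apart: HT vehicle female 1 had 52968 summed normalised counts of 6 choroid plexus markers, against 74.8 to 351 in the others, and HT lithium female 5 held 2.70% of its counts in 15 mitochondrially encoded genes, against 5.15% to 9.47%. A set of 5 olfactory bulb markers varied between libraries within every group, for instance from 250.5 to 14785 in summed normalised counts among WT fluoxetine females, and the summed level of the 10 myelin markers from 49529 to 162740 among HT lithium females. Libraries also differed in how level followed GC content. The slope of the log2 deviation per 10 percentage points of GC was -0.064 ± 0.079 in WT vehicle females, 0.065 ± 0.056 in WT vehicle males, 0.094 ± 0.064 in WT fluoxetine females, -0.044 ± 0.045 in HT vehicle females and 0.053 ± 0.13 in HT lithium females (SD, n = 5 each). It was -0.068 ± 0.075 in HT vehicle males (n = 3) and 0.059 ± 0.072 in HT lithium males (n = 4). The means of the other groups lay between -0.045 and -0.0064. The members' transcripts had a median GC content of 51.5%, against 49.3% for all genes in the table.

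Differences were tested on log2(normalised count + 1) in 1 limma-trend fit over the 56 libraries and 18026 genes, with p-values adjusted after Benjamini and Hochberg over all genes of a comparison. A gene with an adjusted p below 0.05 is termed called. Every fold change, standard error (SE) and interval below is on that log2 scale, drug minus vehicle unless another order is named. Of the 36 members, 10 were called in at least 1 of 21 comparisons and 26 in none. The share of all genes called in at least 1 of the 21 was not counted. In single comparisons it ran from 0% to 12.1%, so the 10 cannot be read as many or few. With the sexes averaged, those 26 lay between -0.20 and 0.28 in the 4 comparisons of drug with vehicle. The comparisons with vehicle share their vehicle libraries within a genotype, so the calls under the 2 drugs are not independent of each other.

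Under fluoxetine, WT mice had more Gaa and Grn and less Npc2 RNA than under vehicle, and the other 33 members were not called. In all, 3 of 36 members (2 higher, 1 lower) passed the test, beside 5.18% of all genes tested, and edgeR on the recovered reads called the same number. Acid sphingomyelinase and acid ceramidase, the hydrolases best known for inhibition by such drugs, were not called: the fold change was -0.014 (95% interval -0.14 to 0.11) for Smpd1 and -0.077 (95% interval -0.18 to 0.031) for Asah1. These are RNA levels, and enzyme activity was not measured. Asah1 was called lower in WT females alone (-0.27), and its fluoxetine effect differed between the sexes (0.39, males minus females). Neither call held with GC content and length corrected. The median fold change of the members was 0.013 and that of all genes tested -0.0073.

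Gaa (ENSMUSG00000025579, chr11:119267887-119285454) had 4257, 4436, 4566, 4986 and 5176 normalised counts in WT vehicle females and 5953, 6235, 6819, 7227 and 7796 in WT fluoxetine females. In males it had 5765, 5984, 6024, 6555 and 6974 under vehicle and 5729, 6087, 6091, 6991 and 7341 under fluoxetine. All 5 fluoxetine females lay above all 5 vehicle females, whereas the males overlapped. The fold change with the sexes averaged was 0.29 (SE 0.072, adjusted p = 0.0124), and the call held with each of the 20 libraries left out. Grn (ENSMUSG00000034708, chr11:102430315-102437048) had 1324, 1384, 1474, 1475 and 1519 in WT vehicle females and 1597, 1787, 1831, 1899.8 and 1993 in WT fluoxetine females. WT vehicle males had 1577, 1589.6, 1672, 1742 and 1765 and WT fluoxetine males 1564, 1569, 1695, 1751 and 1887. Again the females separated and the males overlapped. Its fold change was 0.18 (SE 0.049, adjusted p = 0.0224), and without WT fluoxetine female 2 it was no longer called. Npc2 (ENSMUSG00000021242, chr12:84754562-84773152) had 1332, 1411, 1419, 1445 and 1456 in WT vehicle females, 1007, 1207, 1290.5, 1369 and 1477 in WT fluoxetine females, 1249.8, 1347, 1410.2, 1507 and 1532 in WT vehicle males and 1044, 1115, 1215, 1228 and 1438 in WT fluoxetine males. The groups overlapped in both sexes. Its fold change was -0.20 (SE 0.058, adjusted p = 0.0354), and the call ended without any 1 of 10 of the 20 libraries. With levels corrected within each library for GC content and length, all 3 were still called, and over 8 alternatives besides single libraries left out the adjusted p ran from 0.0061 to 0.0132 for Gaa, 0.00532 to 0.0258 for Grn and 0.0154 to 0.0444 for Npc2.

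**Figure D3:**
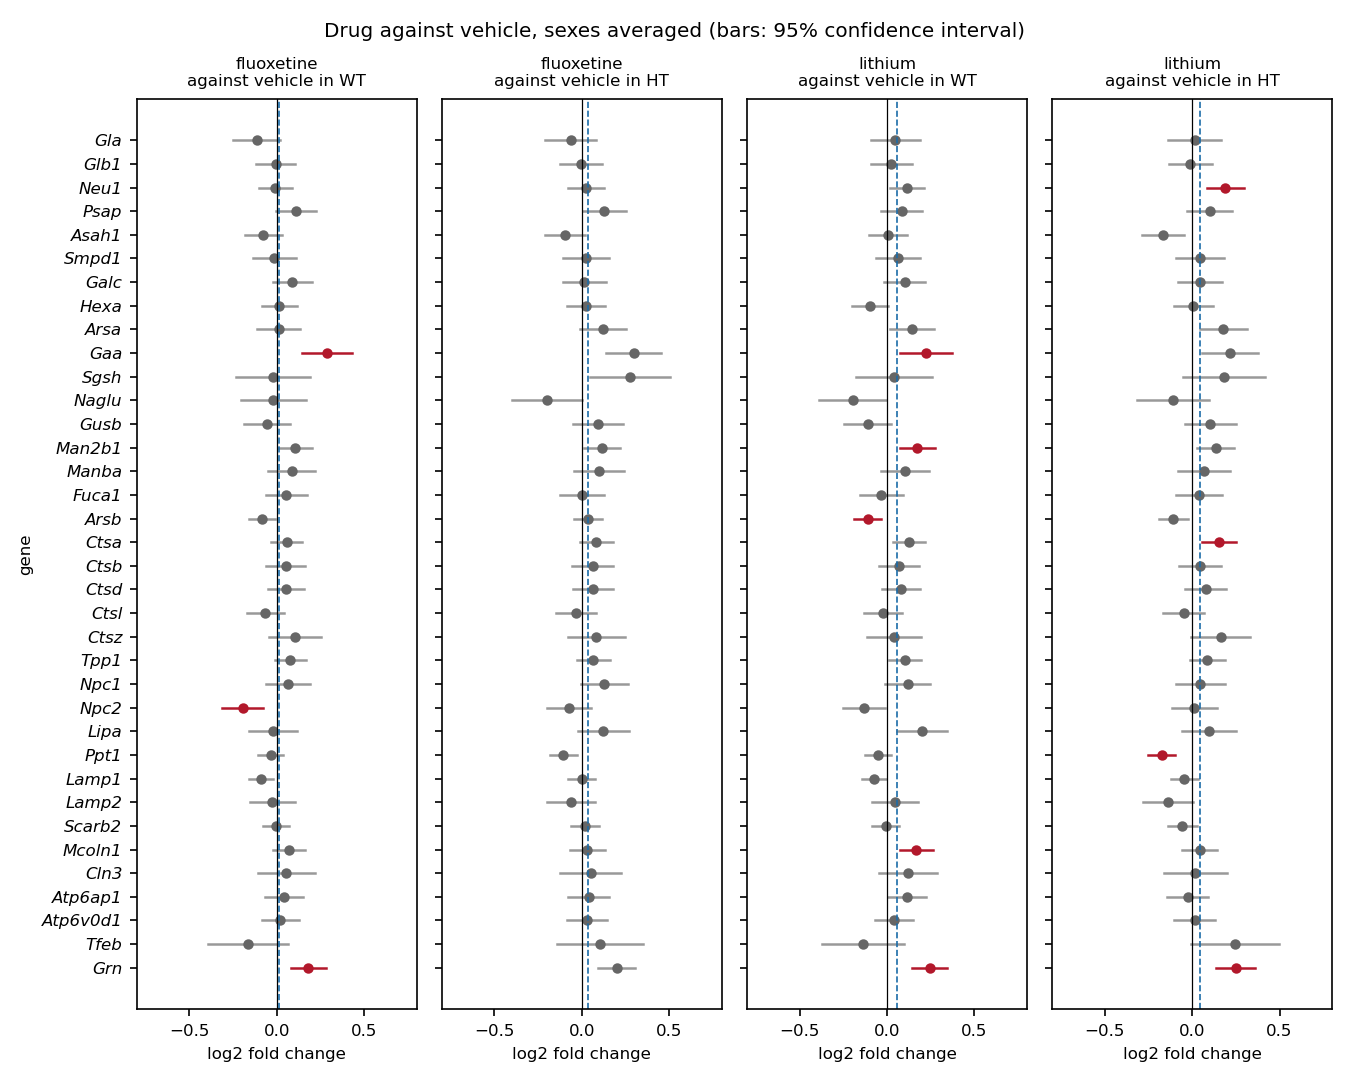
Log2 fold change of each of the 36 genes (point) with its 95% confidence interval (bar) for each drug against vehicle in each genotype, sexes averaged. Called genes are red, a dashed line marks the median of the 36, and the called values lie between -0.20 and 0.29.

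Under lithium, WT mice had more Grn, Gaa, Man2b1 and Mcoln1 RNA and less Arsb RNA than under vehicle. These were 5 of 36 members (4 higher, 1 lower), beside 11.7% of all genes tested, so the share of the members was close to that of all genes. The members' median fold change was 0.055, and that of all genes -0.0029. Man2b1 removes mannose from glycoproteins, Mcoln1 is a channel that TFEB signalling depends on, and Arsb is a sulfatase of dermatan and chondroitin sulfate.

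Grn had 1564, 1845, 1899 and 1920.1 normalised counts in WT lithium females and 1751, 1847, 1864, 1866 and 1975 in WT lithium males. Every lithium female lay above the highest vehicle female, and 1 lithium male lay inside the range of the vehicle males. Its fold change was 0.24 (SE 0.051, adjusted p = 0.000931), and it was called with each of the 19 libraries left out. Gaa had 5332, 6062, 6082 and 7028 in WT lithium females and 6016, 6133, 6237, 7174 and 7211 in WT lithium males. The females lay above all vehicle females and the males overlapped, with a fold change of 0.22 (SE 0.074, adjusted p = 0.0389) that was no longer called without any 1 of 11 of the 19 libraries. Man2b1 (ENSMUSG00000005142, chr8:85083270-85098282) had 1132, 1143, 1214, 1234 and 1256 in WT vehicle females and 1286, 1393, 1417 and 1556 in WT lithium females. In males it had 1277, 1309, 1338, 1354 and 1483 under vehicle and 1341, 1394, 1421, 1509 and 1639 under lithium. Only the females separated, and the fold change was 0.17 (SE 0.049, adjusted p = 0.015).

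Mcoln1 (ENSMUSG00000004567, chr8:3500457-3515232), whose promoter window holds 2 copies of CACGTG, had 1664, 1755, 1817, 1832 and 1893 normalised counts in WT vehicle females and 1901, 1913, 2184 and 2280.3 in WT lithium females. WT vehicle males had 1895, 1906, 1976, 2003 and 2177 and WT lithium males 2083, 2097, 2109, 2150.3 and 2457. The females separated, narrowly, and the males overlapped. The fold change was 0.17 (SE 0.047, adjusted p = 0.0133). The calls of Mcoln1 and Man2b1 both ended without WT lithium female 4. Arsb (ENSMUSG00000042082, chr13:93771630-93943016) had 3494, 3651, 3784, 3880.2 and 4143 in WT vehicle females and 3656, 3795, 3864 and 3879 in WT lithium females. WT vehicle males had 3775, 4123, 4225, 4255 and 4414 and WT lithium males 3434, 3485, 3574, 3621 and 3641. Here the males separated, with every lithium male below every vehicle male, and the females overlapped. Its fold change was -0.11 (SE 0.038, adjusted p = 0.0466), it was not called without any 1 of 15 of the 19 libraries, and with the replicate number as a block the adjusted p was 0.0581. In HT the males also separated, at 3439 to 3769 under lithium and 3966 to 4235 under vehicle, while the females overlapped. Arsb was not called for lithium against vehicle in HT. Markers of other cell types were lower in the same WT lithium males. The summed level of 16 microglial markers ranged from 10015 to 12038 normalised counts there and from 12101 to 14316 in WT vehicle males, and 3 of the 16 were called lower (P2ry13, Cx3cr1 and Itgam). That of 8 endothelial and mural markers ranged from 9278 to 9989 beside 10616 to 12022, and 2 of the 8 were called lower (Pdgfrb and Cldn5). Of all genes, 2.3% were called under lithium in WT males. With the sexes averaged 2 of the 16 and 2 of the 8 were lower, beside 11.7% of all genes, a share close to that of the 16. In HT males the summed microglial markers ranged from 12080 to 14400 under lithium and from 11553 to 13286 under vehicle. The endothelial and mural markers ranged from 9652 to 12168 and from 10302 to 11876 there, so both overlapped. The part of these markers in the lithium results in WT was not tested. Over the 8 alternatives the adjusted p ran from 2.26e-05 to 0.00137 for Grn, 0.0234 to 0.0448 for Gaa, 0.00578 to 0.0197 for Mcoln1 and 0.0185 to 0.0581 for Arsb. For Man2b1 it ran from 0.00896 to 0.0603, the highest with GC content and length corrected (fold change 0.13).

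**Figure D4:**
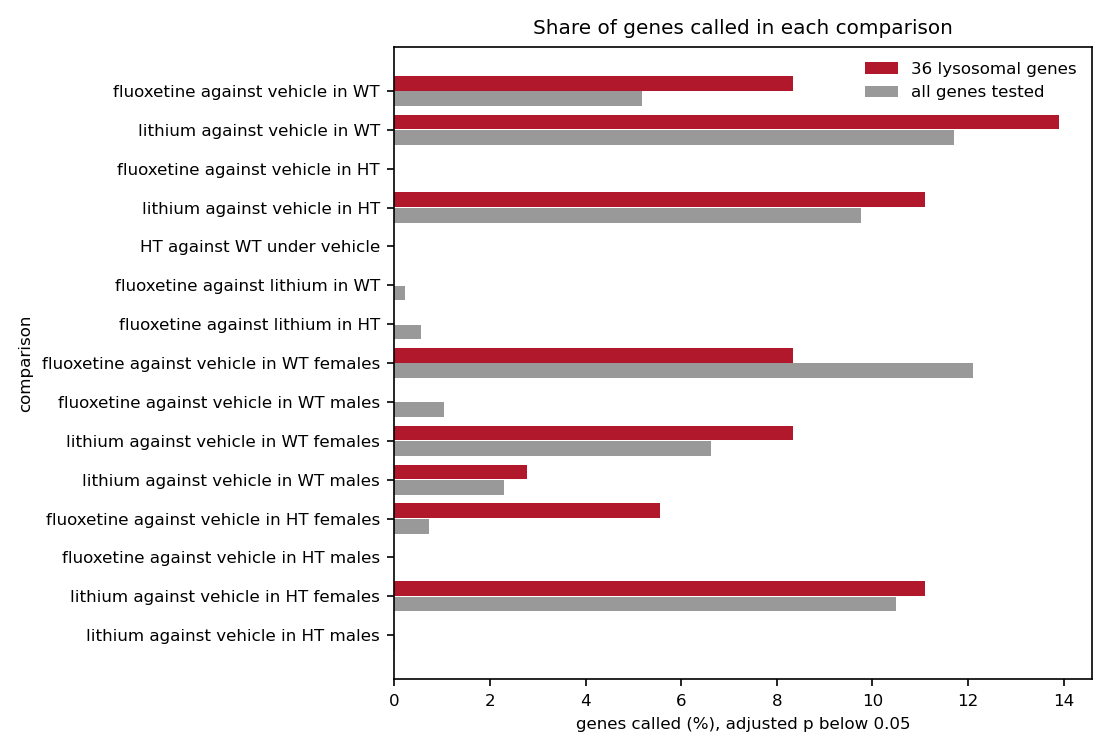
Percent of the 36 lysosomal genes (red) and of all 18026 genes tested (grey) that were called in each comparison. With the sexes averaged the 2 shares are 8.33 and 5.18 for fluoxetine in WT, 13.9 and 11.7 for lithium in WT and 11.1 and 9.77 for lithium in HT.

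Under fluoxetine in HT mice no member was called by limma-trend, beside 0% of all genes tested. At an unadjusted p below 0.05 there were 6 members, and edgeR also called 0. Gaa and Grn had nearly the fold changes seen in WT. For Gaa it was 0.30 (SE 0.078, adjusted p = 0.232) and for Grn 0.20 (SE 0.053, adjusted p = 0.234). The difference between the genotypes in the fluoxetine effect (HT minus WT) was 0.0089 for Gaa (95% interval -0.20 to 0.22) and 0.019 for Grn (95% interval -0.13 to 0.16), neither called. The members' median was 0.035, and that of all genes 0.00087.

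Gaa had 4025, 4247, 4884, 4950.2 and 5525 normalised counts in HT vehicle females, 6143, 6255, 6377, 7390.1 and 7898 in HT fluoxetine females, 5197, 5203 and 6770.4 in HT vehicle males and 5251, 5833, 5892, 6036 and 6767 in HT fluoxetine males. All 5 fluoxetine females lay above all 5 vehicle females and the males overlapped, as in WT. Grn had 1320.2, 1411, 1414, 1418 and 1510.1 in HT vehicle females, 1602, 1704, 1758, 1806 and 1856 in HT fluoxetine females, 1443, 1615 and 1804 in HT vehicle males and 1479, 1649.8, 1733, 1821 and 1989 in HT fluoxetine males. The females separated and the males overlapped.

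Under lithium, HT mice had more Grn, Neu1 and Ctsa RNA and less Ppt1 RNA than under vehicle. These were 4 of 36 members (3 higher, 1 lower), beside 9.77% of all genes tested, and edgeR called the same number. Neu1 and Ctsa encode 2 proteins of 1 lysosomal complex, in which Ctsa protects the sialidase from degradation, and Ppt1 is the thioesterase lost in infantile neuronal ceroid lipofuscinosis. The members' median fold change was 0.044 and that of all genes 0.0021.

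Grn had 1591, 1645, 1748, 1901 and 2018 normalised counts in HT lithium females and 1719.7, 1806, 1862 and 1878 in HT lithium males. The females lay above all vehicle females, the males overlapped, and the fold change was 0.25 (SE 0.054, adjusted p = 0.00212). Neu1 (ENSMUSG00000007038, chr17:34931253-34935953) had 1242, 1323, 1351, 1352 and 1562 in HT vehicle females, 1453, 1454, 1477, 1519.6 and 2015 in HT lithium females, 1310.4, 1312 and 1357 in HT vehicle males and 1435, 1499, 1509.7 and 1554 in HT lithium males. Here the males separated and the females overlapped, since 1 vehicle female had 1562. The fold change was 0.19 (SE 0.052, adjusted p = 0.0143). HT lithium female 5, with 2015 counts of Neu1, is 1 of the 2 libraries apart. Without the 2 libraries the fold change of Neu1 was 0.14 (adjusted p = 0.0522).

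Ppt1 (ENSMUSG00000028657, chr4:122836242-122859175) had 2760.0, 2771, 2823, 2898 and 2914 normalised counts in HT vehicle females and 2183, 2378, 2531, 2665 and 2698 in HT lithium females. HT vehicle males had 2647, 2722 and 2976 and HT lithium males 2397, 2419, 2545 and 2592. Every lithium library lay below every vehicle library of its sex. The fold change was -0.17 (SE 0.039, adjusted p = 0.00224). Ppt1 also lay lower without overlap, though not called, in HT fluoxetine females, at 2505 to 2642. The same held, narrowly, for WT lithium females, at 2539 to 2606 beside 2607 to 2877 in WT vehicle females. In WT under fluoxetine, in WT lithium males and in HT fluoxetine males the libraries overlapped those of vehicle. Ctsa (ENSMUSG00000017760, chr2:164832873-164841032) ranged from 1904 to 2096 in HT vehicle females and from 2166 to 2538 in HT lithium females, which separated, and from 1944 to 2212 in HT vehicle males and from 2211 to 2339 in HT lithium males, which overlapped. Its fold change was 0.16 (SE 0.049, adjusted p = 0.0312). Its call ended without any 1 of 5 of the 17 libraries. With GC content and length corrected, Grn was still called (0.18, adjusted p = 0.0116), but Neu1 (0.13, adjusted p = 0.24), Ctsa (0.075, adjusted p = 0.407) and Ppt1 (-0.097, adjusted p = 0.0619) were not. Those 4 values were the highest adjusted p over the 8 alternatives, and the lowest were 0.00123, 0.00312, 0.0218 and 0.000871. The lithium effect differed by 0.0053 between HT and WT for Grn (95% interval -0.14 to 0.15).

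**Figure D5:**
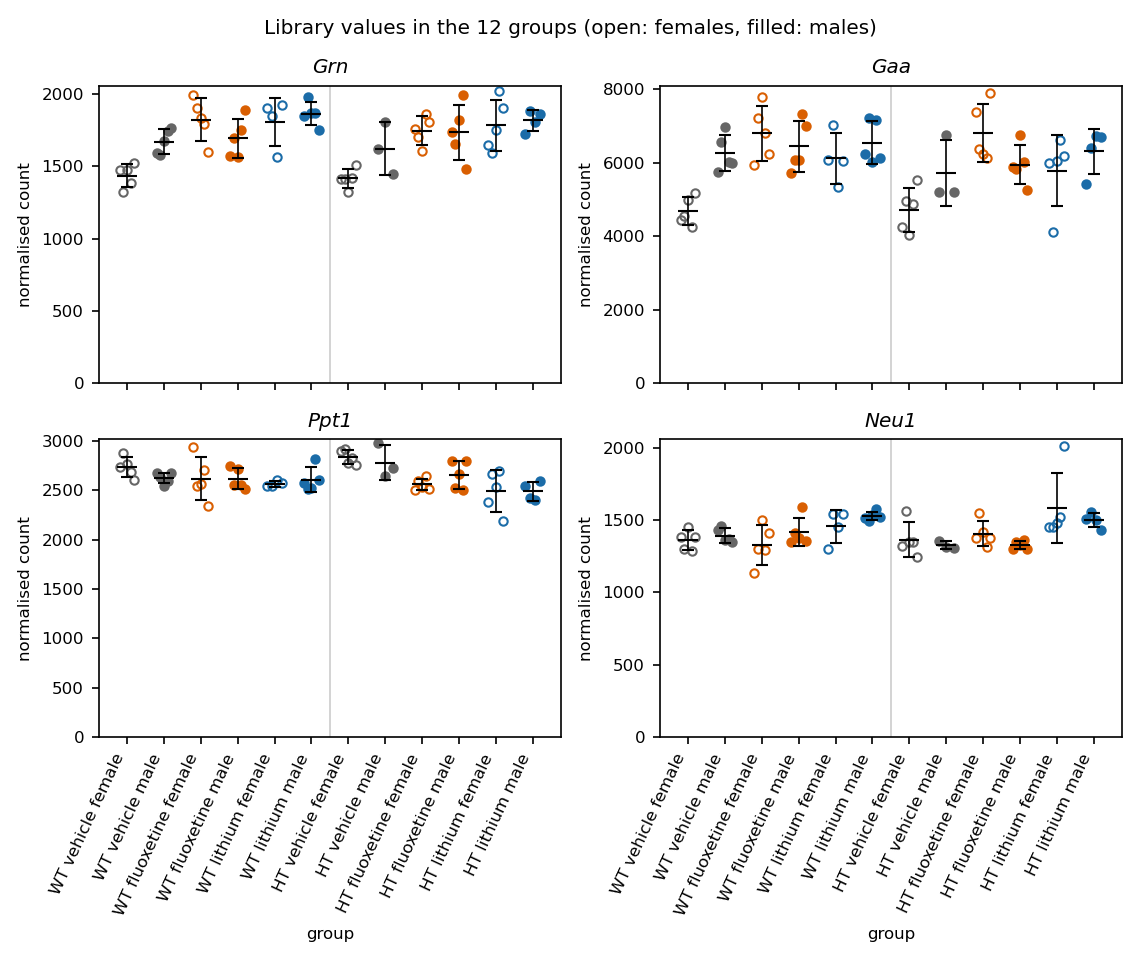
Normalised counts of Grn, Gaa, Ppt1 and Neu1 in each library (open points females, filled points males) of the 12 groups, with the group mean and SD in black. Grn and Gaa are lowest in vehicle females of both genotypes, Ppt1 is lower in every HT lithium library than in every HT vehicle library of the same sex, and 1 HT lithium female stands at 2015 for Neu1.

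Under vehicle no difference between the genotypes passed the test. No member was called for HT against WT by limma-trend or edgeR, beside 0% of all genes. An unadjusted p below 0.05 was found for 2 of 36 members and for 1119 of all 18026 genes. The member with the smallest p was Sgsh, at -0.34 (SE 0.11, adjusted p = 0.719). Sgsh had 149 ± 21.0 normalised counts in WT and 124 ± 15.5 in HT vehicle females (SD, n = 5 each), and 160.0 ± 29.2 in WT (n = 5) and 118 ± 4.73 in HT vehicle males (n = 3). The females overlapped, whereas all 3 HT males (113 to 121 counts) lay just below the lowest WT male (122). The test of whether a drug acted differently in the genotypes called 0 of 36 for fluoxetine (0% of all genes, 1 member at an unadjusted p below 0.05) and 0 of 36 for lithium (0.0166% of all genes, 4 members), by limma-trend and by edgeR. At that unadjusted threshold there were 634 of all 18026 genes for fluoxetine and 1712 for lithium. The smallest p values were those of Arsb for fluoxetine, at 0.12 (SE 0.054, adjusted p = 1), and of Ppt1 for lithium, at -0.12 (SE 0.053, adjusted p = 0.456).

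The 2 drugs were also compared directly. Fluoxetine against lithium called no member in WT (0.233% of all genes, 6 members at an unadjusted p below 0.05) or in HT (0.555%, 2 members), and edgeR also called 0 in each. Of all 18026 genes, 1852 in WT and 2374 in HT had such an unadjusted p. In WT the smallest p was that of Lipa, the acid lipase, whose fold change was -0.22 (SE 0.070, adjusted p = 0.18). In HT it was that of Arsb, at 0.14 (SE 0.038, adjusted p = 0.0633), which was called without HT fluoxetine female 5 or HT lithium female 1, and with the olfactory level as a covariate (0.15, adjusted p = 0.021, in a range of 0.021 to 0.124 over the 8 alternatives).

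Within a sex, most calls came from females, among the members as among all genes. Of all genes, fluoxetine called 2189 in WT females and 185 in WT males, and lithium 1194 and 415. In HT fluoxetine called 131 in females and 0 in males, and lithium 1894 and 3, with only 3 libraries of HT vehicle males. Fluoxetine in WT females called 3 members (2 higher, 1 lower), beside 12.1% of all genes: Gaa rose by 0.54 (SE 0.10, adjusted p = 0.000603), Grn by 0.34 (SE 0.070, adjusted p = 0.00103), and Asah1 changed by -0.27 (SE 0.076, adjusted p = 0.0134). Asah1 (ENSMUSG00000031591, chr8:41340197-41374773) ranged from 1322 to 1719 normalised counts in WT vehicle females and from 1098 to 1348 in WT fluoxetine females, and the ranges overlapped. It was not called without WT vehicle female 4 or WT fluoxetine female 1, or after the GC and length correction (-0.14, adjusted p = 0.218), which left Gaa (0.36, adjusted p = 0.022) and Grn (0.25, adjusted p = 0.0105) called. These were the highest adjusted p of the 3 over the 8 alternatives, and the lowest were 0.00728, 0.000138 and 0.000365. In WT males fluoxetine called 0 of 36 members by limma-trend and by edgeR (1.03% of all genes, 5 members at an unadjusted p below 0.05). Of all 18026 genes, 2764 had such an unadjusted p. The smallest p was that of Tfeb, at -0.51 (SE 0.16, adjusted p = 0.0969).

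In HT females fluoxetine called Gaa, at 0.53 (SE 0.10, adjusted p = 0.0064), and Grn, at 0.30 (SE 0.070, adjusted p = 0.0214), which were 2 of 36 (2 higher), beside 0.727% of all genes. Gaa was not called without HT vehicle female 3 or HT fluoxetine female 5, and Grn without any 1 of 6 of the 10 libraries. After the GC and length correction the values were 0.48 and 0.29, and over the 8 alternatives the adjusted p ran from 0.0024 to 0.0265 for Gaa and 0.00464 to 0.0464 for Grn. In HT males fluoxetine called 0 members by either tool (0% of all genes, 0 members at an unadjusted p below 0.05), and the smallest p was that of Sgsh, at 0.29 (SE 0.17, adjusted p = 1). Of all 18026 genes, 644 had an unadjusted p below 0.05 there.

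Lithium in WT females called 3 members, all higher, beside 6.62% of all genes. They were Grn at 0.33 (SE 0.074, adjusted p = 0.00388), Gaa at 0.38 (SE 0.11, adjusted p = 0.0213) and Man2b1 at 0.24 (SE 0.072, adjusted p = 0.0329). The call of Gaa ended without WT vehicle female 4, WT lithium female 2 or WT lithium female 4, and that of Man2b1 without any 1 of 5 of the 9 libraries. With GC content and length corrected neither was called (0.29 and 0.14), and over the 8 alternatives the adjusted p ran from 0.0136 to 0.0715 for Gaa and 0.0215 to 0.298 for Man2b1. In WT males lithium called only Arsb (1 lower, beside 2.3% of all genes), at -0.23 (SE 0.052, adjusted p = 0.0103), and that call ended without WT vehicle male 4. Lithium in HT females called 4 members (3 higher, 1 lower), beside 10.5%: Grn at 0.33 (SE 0.070, adjusted p = 0.00122), Ctsa at 0.20 (SE 0.062, adjusted p = 0.0294), Neu1 at 0.21 (SE 0.067, adjusted p = 0.0381) and Ppt1 at -0.19 (SE 0.049, adjusted p = 0.00802). Without HT lithium female 5 neither Neu1 nor Ppt1 was called, Neu1 and Ctsa were each lost without any 1 of 5 of the 10 libraries, and after the GC and length correction only Grn was called. In HT males lithium called 0 members by limma-trend and edgeR (0.0166% of all genes, 5 members at an unadjusted p below 0.05), with the smallest p for Ppt1, at -0.16 (SE 0.059, adjusted p = 0.299). Of all 18026 genes, 1954 had an unadjusted p below 0.05 there.

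Whether the sexes differed was tested directly, as the effect in males minus that in females. For fluoxetine in WT, 3 of 36 members were called (1 higher, 2 lower), beside 7.74% of all genes. The difference was -0.50 (SE 0.14, adjusted p = 0.0288) for Gaa, -0.32 (SE 0.098, adjusted p = 0.0353) for Grn and 0.39 (SE 0.11, adjusted p = 0.0218) for Asah1. In males alone the fluoxetine fold changes were 0.040, 0.019 and 0.12. None of the 3 was called after the GC and length correction (-0.20, -0.14 and 0.24), and leaving out single libraries ended the call of Gaa in 6, of Grn in 10 and of Asah1 in 4 of 20 cases. The mean GC slope was -0.064 in WT vehicle females and 0.094 in WT fluoxetine females, but 0.065 in WT vehicle males and -0.045 in WT fluoxetine males, and its part in the difference beyond that correction was not tested. The corresponding differences called 0 of 36 members by limma-trend and edgeR for lithium in WT (0% of all genes, 5 members at an unadjusted p below 0.05), fluoxetine in HT (0.0277%, 2 members) and lithium in HT (0.172%, 1 member). Of all 18026 genes, 1556, 1194 and 1595 had such an unadjusted p, in that order. The smallest p values of members there belonged to Arsb, at -0.23 (SE 0.076, adjusted p = 0.311), Gaa, at -0.47 (SE 0.16, adjusted p = 0.494), and Npc1, at -0.36 (SE 0.14, adjusted p = 0.413).

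The called members came from all 6 roles. In the 4 comparisons of drug with vehicle with the sexes averaged, 1 of the 9 sphingolipid hydrolases and activators was called, Neu1. Of the 8 glycan hydrolases 3 were called (Gaa, Man2b1 and Arsb), of the 6 peptidases only Ctsa, of the 4 sterol and lipid ester proteins Npc2 and Ppt1, and of the 7 membrane and pump proteins Mcoln1. Of the regulator and the secreted protein, Tfeb was called in no comparison and Grn in 3 of those 4. Of all genes tested, fluoxetine called 5.18% in WT and 0% in HT, and lithium 11.7% in WT and 9.77% in HT. The share of all genes called in at least 1 of the 4 was not counted, so the counts by role cannot be read as many or few. Lamp1 and Lamp2, the most used lysosomal marker proteins, were called in no comparison: Lamp1 had 9791 ± 293 normalised counts in WT vehicle females and 9393 ± 530.3 in WT fluoxetine females (SD, n = 5 each). Neither was either proton pump member, Atp6ap1 or Atp6v0d1.

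Other lysosomal genes were read from lists drawn up beside the members. Of 28 other hydrolases and activators tested, fluoxetine in WT called 1 lower (5.18% of all genes), lithium in WT 2 higher and 1 lower (11.7%), and lithium in HT 1 higher and 1 lower (9.77%), shares no larger than those of all genes. Under lithium, Dpp7 (a dipeptidyl peptidase) was higher in WT at 0.23 (SE 0.065, adjusted p = 0.0132), and Hgsnat (an acetyltransferase of heparan sulfate breakdown) was lower in HT at -0.17 (SE 0.057, adjusted p = 0.0415). Fluoxetine in HT called none of the 28 by limma-trend or edgeR, with 1 at an unadjusted p below 0.05, beside 1307 of all 18026 genes.

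Of 32 membrane and sorting proteins outside the 36, fluoxetine in WT called 5 higher and 0 lower, beside 575 higher and 358 lower of all genes (5.18%). Lithium in WT called 9 higher and 0 lower, beside 1271 and 838 (11.7%), and lithium in HT 3 higher and 1 lower, beside 913 and 848 (9.77%). Fluoxetine in HT called 0 of the 32 by limma-trend or edgeR (4 at an unadjusted p below 0.05, beside 1307 of all 18026 genes). Lithium in HT females called 4 higher and 3 lower (10.5% of all genes). The medians of the list with the sexes averaged were 0.0064 for fluoxetine and 0.062 for lithium in WT, and 0.014 and 0.030 in HT. Igf2r, the mannose 6-phosphate receptor that carries hydrolases to lysosomes, rose under fluoxetine in WT and under lithium in both genotypes, by 0.21 (adjusted p = 0.0135), 0.29 (adjusted p = 0.000184) and 0.24 (adjusted p = 0.00531). Under fluoxetine in WT the two-pore channels Tpcn1 (0.22, adjusted p = 0.011) and Tpcn2 (0.41, adjusted p = 0.0107) and the fusion adaptor Plekhm1 (0.21, adjusted p = 0.00183) were higher. Under lithium in WT the amino acid sensor Slc38a9 (0.27, adjusted p = 8.06e-05), Plekhm1 (0.18, adjusted p = 0.00331) and the chloride exchanger Clcn7 (0.18, adjusted p = 0.00733) were higher. In HT under lithium Tpcn1 (0.27, adjusted p = 0.00212) and Vps18 (0.28, adjusted p = 0.0292) were higher and the potassium channel Tmem175 was lower (-0.18, adjusted p = 0.0475).

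None of the 16 other proton pump subunits was called by limma-trend or edgeR in a comparison of drug with vehicle with the sexes averaged. An unadjusted p below 0.05 was found for 1 to 5 of them, beside 1307 to 4597 of all 18026 genes. In females 4 of the 16 were lower under fluoxetine in WT (12.1% of all genes called) and 2 under lithium in HT (10.5%, a share close to that of the list), with list medians of -0.13 and -0.14. Of 23 genes of the TFEB family, nutrient sensing and autophagy, fluoxetine in WT called 1 higher, the autophagy kinase Ulk1, at 0.13 (SE 0.040, adjusted p = 0.0396), beside 5.18% of all genes. In WT females alone fluoxetine called Ulk1 (0.25), Tfe3 (0.23) and Flcn (0.26) higher and Gabarapl2 (-0.17) lower, beside 12.1% of all genes. The fluoxetine effect in WT males minus that in females was called for Tfe3 (-0.31), Fnip1 (0.56) and Flcn (-0.27), beside 7.74%. Lithium in WT called 5 higher and 2 lower (11.7% of all genes), led by the Rag GTPase regulators Flcn (0.25, adjusted p = 0.000173) and Fnip2 (0.29, adjusted p = 0.000369), with Atg16l1 (0.14, adjusted p = 0.00415) and Ulk1 (0.16, adjusted p = 0.00606). Lithium in HT called Ulk1 higher (0.14, adjusted p = 0.0338) and Gabarapl2 lower (-0.14, adjusted p = 0.0358), beside 9.77% of all genes. The share called was close to that of all genes for fluoxetine in WT and lithium in HT. Fluoxetine in HT called 0 of the 23 by limma-trend or edgeR, with 2 at an unadjusted p below 0.05, beside 1307 of all 18026 genes.

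Genes of sterol synthesis and uptake, which respond to the cholesterol that lysosomes release, were read beside the lysosomal genes. Of 22 tested, 13 were lower and 0 higher under fluoxetine in WT (5.18% of all genes called), with a list median of -0.28, and 5 were lower under lithium in WT (11.7%), with a median of -0.14. The synthesis regulator Insig1 changed by -0.36 (SE 0.060, adjusted p = 0.00043) under fluoxetine in WT, Sqle (squalene epoxidase) by -0.35 (SE 0.063, adjusted p = 0.000575), Hmgcs1 (HMG-CoA synthase) by -0.38 (SE 0.075, adjusted p = 0.00183) and Nsdhl by -0.29 (SE 0.061, adjusted p = 0.00288). In HT with the sexes averaged none of the 22 was called by limma-trend under either drug (12 under fluoxetine and 3 under lithium had an unadjusted p below 0.05, and edgeR called 0 and 1), and the list medians were -0.15 for fluoxetine and -0.089 for lithium. Of all 18026 genes, 1307 under fluoxetine and 4238 under lithium in HT had such an unadjusted p. In HT females alone lithium called 4 lower, Idi1, Insig1, Stard4 and Fdps, beside 10.5% of all genes. Myelin genes moved beside them: 5 of 10 myelin markers were lower under fluoxetine in WT, with a median of -0.63, and their summed level ranged from 141336 to 176267 in WT vehicle females, 54940 to 148115 in WT fluoxetine females, 88023 to 258924 in WT vehicle males and 90741 to 176901 in WT fluoxetine males. Their part in the sterol, Npc2 and other results in WT fluoxetine mice was not tested. Of 16 microglial markers, which come from cells rich in lysosomes, 1 was lower under fluoxetine in WT and 2 under lithium in WT, and 1 was higher under lithium in HT. Of all genes 5.18%, 11.7% and 9.77% were called there, so these shares were close to or below those of all genes. The summed level of the 16 ranged from 10974 to 13507 in WT vehicle females, 8705 to 13210 in WT fluoxetine females and 11067 to 12740.2 in WT lithium females, and these ranges overlapped. In males it ranged from 12101 to 14316 under vehicle, 10936 to 13653 under fluoxetine and 10015 to 12038 under lithium, so that all 5 WT lithium males lay below all 5 WT vehicle males.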

How the data were processed

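Poly(A) RNA was sequenced with a stranded kit, per the labels' protocols. The deposited values are a signal: gene counts that the authors divided by 1 size factor per library, in 59 columns. Of these, 3 fitted no sample's labels and were left aside, and 1 of the 57 labelled samples (WT lithium, female) could not be linked to a column and is not analysed here. Salmon 0.11.2, R 3.6.0, DESeq2 1.19.11 and GRCm38 are named, per the submitters' processing notes, without role or order. Size factors hide a change of total RNA per cell, and gene values join all transcripts of a gene. Within each library 100% of values were whole multiples of 1 step (tolerance 1e-06), so whole reads could be recovered. Libraries of 1 group never agreed within sampling noise (chi-square of at least 4.71 per degree of freedom over 105 pairs).

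The 18026 genes that reached 10 in 3 or more libraries were tested on log2(value + 1), which understates folds of low genes, in 1 limma-trend fit of 12 group means (limma 3.58.1, R 4.3.3, 44 residual degrees of freedom, two-sided). Comparisons averaged the sexes with equal weight, or were within a sex, or were differences of effects. edgeR 4.0.16 quasi-likelihood (TMM) on recovered reads, TMM factors, no filter, a pseudocount of 5, a replicate block, an olfactory covariate, a spline correction (4 degrees of freedom) of each library for GC content and length, leaving out the 2 libraries apart, and leaving out each of 56 libraries were the alternatives. Symbols (18077 matched), lengths and GC content came from GENCODE on GRCm38. The fits were tested on simulated counts.

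The members, lists and tests were chosen with earlier results of these data known. Every member is named with its level. Fold changes are given for each called member, or else for the member of smallest p, and library values for the 8 members called most often with the sexes averaged. Of each list up to 4 called genes of smallest p are named. Values of some called genes of the list of other hydrolases are not reported here. Values for Smpd1, Asah1, Gaa, Grn and Lamp1 beyond these rules, and library ranges for Ctsa and Asah1, were picked after they were seen.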

Additional observations from a re-analysis of the deposited data

Results flagged for a closer look

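Of 99 groups of 4 or 5 libraries examined (the 8 genes given by library and the mean deviation of the 36), 8 had a library apart from the rest, and chance marks about 1 in 20. Gaa had 4118 normalised counts in HT lithium female 2, below the others at 5996 to 6611. Arsb had 3439 in HT lithium male 1, below 3744 to 3769. Neu1 had 1588 in WT fluoxetine male 4, above 1351 to 1410.3, and 2015 in HT lithium female 5, above 1453 to 1519.6. Mcoln1 had 2457 in WT lithium male 4, above 2083 to 2150.3, and 1664 in HT vehicle female 1, below 1977 to 2091. The mean deviation of the 36 was -0.000985 in HT vehicle female 1, above -0.081 to -0.066 in the others, and 0.000333 in HT lithium male 1, below 0.023 to 0.027. HT vehicle female 1 and HT lithium female 5 are the 2 libraries that stand apart in choroid plexus markers and mitochondrially encoded genes.

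The fluoxetine effect in WT differed between the sexes (males minus females, limma-trend, adjusted p below 0.05) by 0.39 for Asah1, -0.50 for Gaa and -0.32 for Grn on the log2 scale.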

How the results depend on the processing

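Over 8 alternatives besides single libraries left out, 302 of 320 pairs of a single gene's result and a setting kept direction and side of the threshold, 17 lost the call, 1 gained it and 0 reversed. With single libraries left out, 94 of 637 pairs lost the call, 2 gained it and 0 reversed. Of 168 pairs of a count of called members and a setting, 15 moved by over 1.5 times. With the olfactory covariate the count was 9 for lithium in WT, 7 for lithium in HT, 2 for fluoxetine against lithium in WT and 2 in HT, 8 for fluoxetine in WT females, 1 in WT males and 4 in HT females, and 7 for lithium in WT females and 8 in HT females. With GC content and length corrected it was 1 for lithium in HT, 1 in WT females, 2 in WT males and 1 in HT females, and 0 for the sex difference of the fluoxetine effect in WT. Without the 2 libraries apart it was 5 for lithium in WT females. The share of all genes called is not given here for these settings or for single libraries left out. The moves therefore cannot be read as particular to the members, and their cause was not tested.

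Leaving out 1 library at a time gave 1 to 3 called members for fluoxetine in WT, 1 to 6 for lithium in WT, 3 to 7 for lithium in HT, 0 to 1 for fluoxetine against lithium in HT, 2 to 7 for fluoxetine in WT females, 1 to 5 for lithium in WT females, 0 to 1 for lithium in WT males, 0 to 2 for fluoxetine in HT females, 2 to 6 for lithium in HT females and 0 to 8 for the sex difference of the fluoxetine effect in WT, and 0 throughout for the other 11 comparisons.

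With a replicate block, Arsb under lithium in WT was not called (-0.11, adjusted p = 0.0581), which made that count 4 in place of 5, and no other call changed. The replicate numbers do not pair the libraries: over 35 pairs of groups with shared numbers the correlation of deviations ran from -0.33 to 0.45 (median -0.0070), and 5 were above 0.1. Depth was at least 22984556 reads, and the lowest median level of a member was 146 normalised counts (Sgsh). How much of the spread between libraries is counting error was not separated.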
